A study of Mus musculus with 10 samples.

Results

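The response of immortalized mouse macrophages of a TLR9KO line to β-1,3 glucan beads is described here across the genome. TLR9KO stands for a knockout of Toll-like receptor 9. The comparison rests on 4 of the 10 arrays of the series, chosen by their titles. They were 2 arrays of knockout cells that received beads, at 20 beads per cell for 4 h, and 2 arrays of unstimulated knockout cells. The remaining 6 arrays, 3 with the same bead treatment and 3 unstimulated, were of a wild-type B6 line of immortalized macrophages and served as the comparison line. For all samples, 100 ng of total RNA entered the amplification and labelling. The question was which genes change expression when cells that lack TLR9 meet the beads. Each genotype was represented by 1 named line, so effects of the genotype and other differences between the lines cannot be told apart. Whether replicate arrays stem from separate cultures is not stated in the labels, and the p-values cover no more than the spread among these arrays.

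β-1,3 glucan is a sugar polymer of the fungal cell wall. Macrophages bind it through Dectin-1, the product of Clec7a, which signals through the kinase Syk and the adaptor Card9 towards NF-kappaB, NFAT and AP-1 transcription factors, phagocytosis and the respiratory burst. TLR9 senses DNA rich in unmethylated CpG inside endosomes and phagosomes, signals through Myd88, and depends on the chaperone Unc93b1 to reach them, as do the RNA sensors Tlr7 and Tlr8.

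With beads, the knockout cells had higher signals for Olfml3, a secreted matrix glycoprotein, the Notch ligand Jag1, the protease Furin, the integrin Itgav and the proteoglycan Sdc1. They had lower signals for Pde7b, Tlr8, Maf and Gpr162, and for many interferon-stimulated and cholesterol synthesis genes. Among the 20 genes named below by their p, the folds ran from 1.35 for Pgpep1 to 2.60 for Olfml3. No gene of 19938 passed the test (limma, Benjamini-Hochberg adjusted p under 0.05), in either direction, which is 0% of the genes. The smallest adjusted p was 0.514. At an unadjusted p under 0.05, 223 genes (1.12%) were higher and 136 (0.682%) were lower with beads. Without any effect of the beads, a fraction of about 0.05 of the genes would fall under this cut, counting both directions. The higher and lower genes add up to a smaller share. Of these 359 genes, 62.1% were higher. That share was 63.6% after centring each array on its median and 51.2% after centring on its 75th percentile. After quantile normalisation of the table it was 53.8%. The split between the directions thus changed with some of these scalings, and hardly with centring on the median. The median difference over all genes was 0.004 on the log2 scale.

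Both bead arrays lay above both unstimulated arrays for 2636 genes (13.2%) and below both for 2231 genes (11.2%). These shares are the background for the counts of such genes in each group below. With 2 arrays a side, many genes separate in this way by the order of the arrays alone. Separation by itself therefore shows no response to the beads. A difference of at least 0.5 on the log2 scale was seen for 65 genes that were higher and 51 that were lower, all with no overlap between the groups. In the wild-type line 9 genes were higher and 6 were lower by that amount. Only Olfml3 was higher by 1 or more in the knockout line, and only Pde7b and Tlr8 were lower by as much. The sizes of wild-type differences are means over 3 arrays a side and those of the knockout line over 2, so their spreads differ.

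The knockout arrays did not pair by treatment over the whole of the genes. Bead array 1 correlated best with unstimulated array 2 (Pearson r across genes 0.9966), and bead array 2 with unstimulated array 1 (0.9969). Within the groups r was 0.9945 for the bead arrays and 0.9949 for the unstimulated arrays. The SD of the signal over genes, called the signal range here, was 1.857 and 1.953 in the bead arrays and 1.907 and 1.866 in the unstimulated arrays. In the wild-type line bead array 3 had the lowest signal range of the series, 1.751, and the other wild-type arrays lay between 1.904 and 2.002. This array enters the spread that the test uses for each gene, and the counts without it are given below. Of 24 measured macrophage markers, 22 were not below the 25th percentile of all probe sets on all 4 knockout arrays. Csf1r, Cd68 and Lyz2 read between 11.99 and 12.69, while Cd163 and Timd4 read between 4.76 and 5.13, and Ccr2 and Vsig4 were below that percentile on all 4. Tlr9 itself read 7.35 and 7.31 with beads and 7.44 and 7.62 without, above the 25th percentile of all probe sets on each array. Where its probes lie with respect to the deletion is not known here, and the values therefore check nothing about the genotype.

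The 10 genes with the smallest unadjusted p among those with higher signal on both bead arrays were Sdc1, Carmil1, Furin, Rai14, Jag1, Map2k3, St6galnac4, Itgav, Olfml3 and Il1rn. Their differences ran from 0.58 to 1.38 on the log2 scale. The choice of these genes fixed the lack of overlap and favoured a small spread within the pairs. Both are therefore given as description only. The intervals printed for these genes are not adjusted for that choice. The product of Olfml3, a secreted glycoprotein of the olfactomedin-like family, has roles in the extracellular matrix. Its probe set (10500808) read 8.06 and 8.57 with beads and 7.09 and 6.77 without. The bead arrays lay above the unstimulated arrays by more than either pair differed within itself. The difference was 1.38 (SE 0.26, 95% confidence interval 0.79 to 1.97, adjusted p = 0.673), or 2.60-fold. In the wild-type line it was 0.26.

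Jag1, a ligand of Notch receptors, read 7.10 and 7.34 with beads and 6.46 and 6.07 without. The groups did not overlap, and the difference was 0.96 (SE 0.16, adjusted p = 0.514). Sdc1, which encodes the heparan sulfate proteoglycan syndecan-1, read 8.65 and 8.78 against 7.95 and 8.05. Its bead arrays were near each other and well above both unstimulated arrays, by 0.71 (SE 0.10, interval 0.49 to 0.93, adjusted p = 0.514). Itgav encodes integrin alpha V, a receptor subunit for matrix proteins and for latent TGF-beta. It read 11.04 and 11.10 with beads against 10.30 and 10.48, a difference of 0.68 (SE 0.13).

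Furin, the convertase that cleaves many secreted precursors, read 10.25 and 10.34 with beads and 9.47 and 9.56 without. The values were tight within each pair, and the difference was 0.78 (SE 0.13, interval 0.50 to 1.06), or 1.72-fold. Carmil1, a regulator of actin filament capping, read 7.69 and 7.70 against 6.83 and 6.99. Rai14, an ankyrin repeat protein bound to actin, read 9.03 and 8.95 against 8.18 and 8.20. Neither gene overlapped between the groups, with differences of 0.79 (SE 0.12) for Carmil1 and 0.80 (SE 0.13) for Rai14.

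Map2k3, the kinase that activates p38 MAP kinases, was nearly even within each pair, with 9.86 and 9.89 with beads and 9.30 in both unstimulated arrays. Its difference was 0.58 (SE 0.10). St6galnac4, a sialyltransferase, read 9.01 and 9.20 against 8.38 and 8.39, a difference of 0.72 (SE 0.14). Il1rn, the secreted antagonist of the interleukin-1 receptor, read 9.33 and 9.37 against 8.78 and 8.73, a difference of 0.60 (SE 0.11). Both genes were higher on each bead array than on each unstimulated array.

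**Figure D1:**
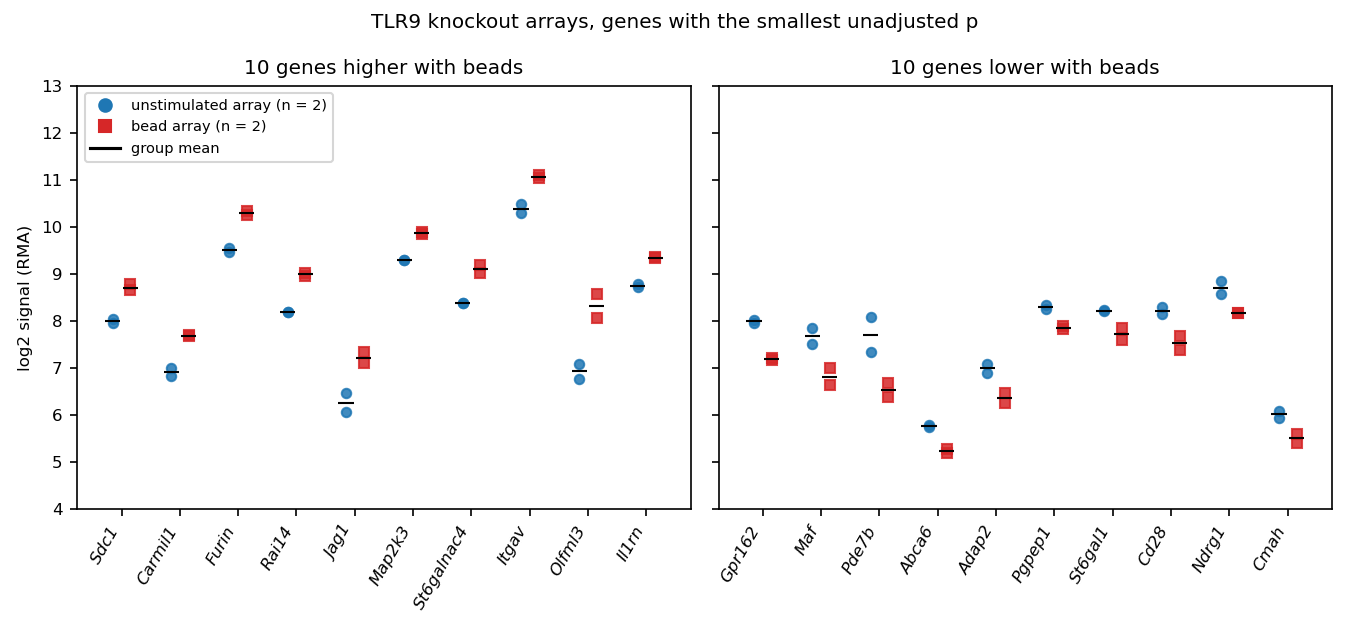
RMA log2 signal (vertical axis) of the 10 higher and the 10 lower genes with the smallest unadjusted p, by gene, in the 2 unstimulated (blue circles) and 2 bead (red squares) knockout arrays, with the group means as bars. No gene shown overlaps between its groups, which the choice of the genes fixed, and the widest gaps are those of Olfml3 (1.38) and Pde7b (-1.18).

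The 10 lower genes chosen in the same way were Gpr162, Maf, Pde7b, Abca6, Adap2, Pgpep1, St6gal1, Cd28, Ndrg1 and Cmah. Their differences ran from -1.18 to -0.43. The choice likewise fixed their lack of overlap and favoured tight pairs, and their intervals are not adjusted for it. Pde7b, a phosphodiesterase that degrades cyclic AMP, read 6.39 and 6.67 with beads and 8.08 and 7.34 without. The unstimulated arrays were themselves apart, and still both lay above the bead arrays, by 1.18 (difference -1.18, SE 0.23, interval -1.69 to -0.67, adjusted p = 0.673), or 2.26-fold. In the wild-type line the Pde7b signal lay between 5.41 and 5.72 in all 6 arrays and the difference was 0.06.

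Maf encodes a transcription factor of the differentiated macrophage. It read 6.99 and 6.63 with beads and 7.50 and 7.84 without, with no overlap and a difference of -0.86 (SE 0.15, interval -1.20 to -0.52). Gpr162, an orphan G protein-coupled receptor, read 7.21 and 7.17 against 7.96 and 8.03. Both pairs were tight, and the difference was -0.80 (SE 0.11, interval -1.06 to -0.55, adjusted p = 0.514), or 1.75-fold. Cd28, known as a costimulatory receptor of T cells, read 7.38 and 7.68 against 8.15 and 8.29, a difference of -0.69 (SE 0.15).

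St6gal1, which adds sialic acid to the ends of N-glycans, read 7.60 and 7.84 with beads and 8.21 and 8.23 without, a difference of -0.50 (SE 0.11). Cmah, the hydroxylase that makes the glycolyl form of sialic acid, read 5.41 and 5.59 against 6.09 and 5.93, a difference of -0.52 (SE 0.12). The other lower genes were Abca6 (-0.53), a transporter of the ABC family, Adap2 (-0.63), a GTPase-activating protein for Arf proteins, Pgpep1 (-0.43), a pyroglutamyl peptidase, and Ndrg1 (-0.54), a gene known for its induction by low oxygen. Ndrg1 was also lower in the wild-type line, by 0.38 (difference -0.38).

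How many genes passed depended on how arrays were weighed. With the signal range of each array added to the model as a covariate, 110 genes (0.552%) passed, 57 higher (0.286%) and 53 lower (0.266%). With array weights estimated by limma, 16 genes (0.0802%) passed, 15 of them higher, and without wild-type bead array 3, 17 genes (0.0853%) passed, 15 of them higher. All 16 and all 17 were among the 110, and 14 passed in both of these fits. The iteration for the array weights did not reach its tolerance, so counts with these weights are provisional. The covariate takes 1 of the 6 residual degrees of freedom. With that covariate and without wild-type bead array 3, 84 genes passed, 74 of them among the 110. With only the 4 knockout arrays and the covariate, which leaves 1 residual degree of freedom, 97 passed, 69 of them among the 110. Leaving out any one knockout array left none, also where the spread of a lone array was taken to be like that of the other groups. All 20 genes named above passed with the covariate, 10 with array weights and 9 without wild-type bead array 3. These fits reuse the knockout arrays on which the 20 genes were chosen, so passing them is no independent support. The same holds for genes that passed in more than 1 of the fits. For Furin the adjusted p ran from 0.00232 to 1 over all the alternatives.

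**Figure D2:**
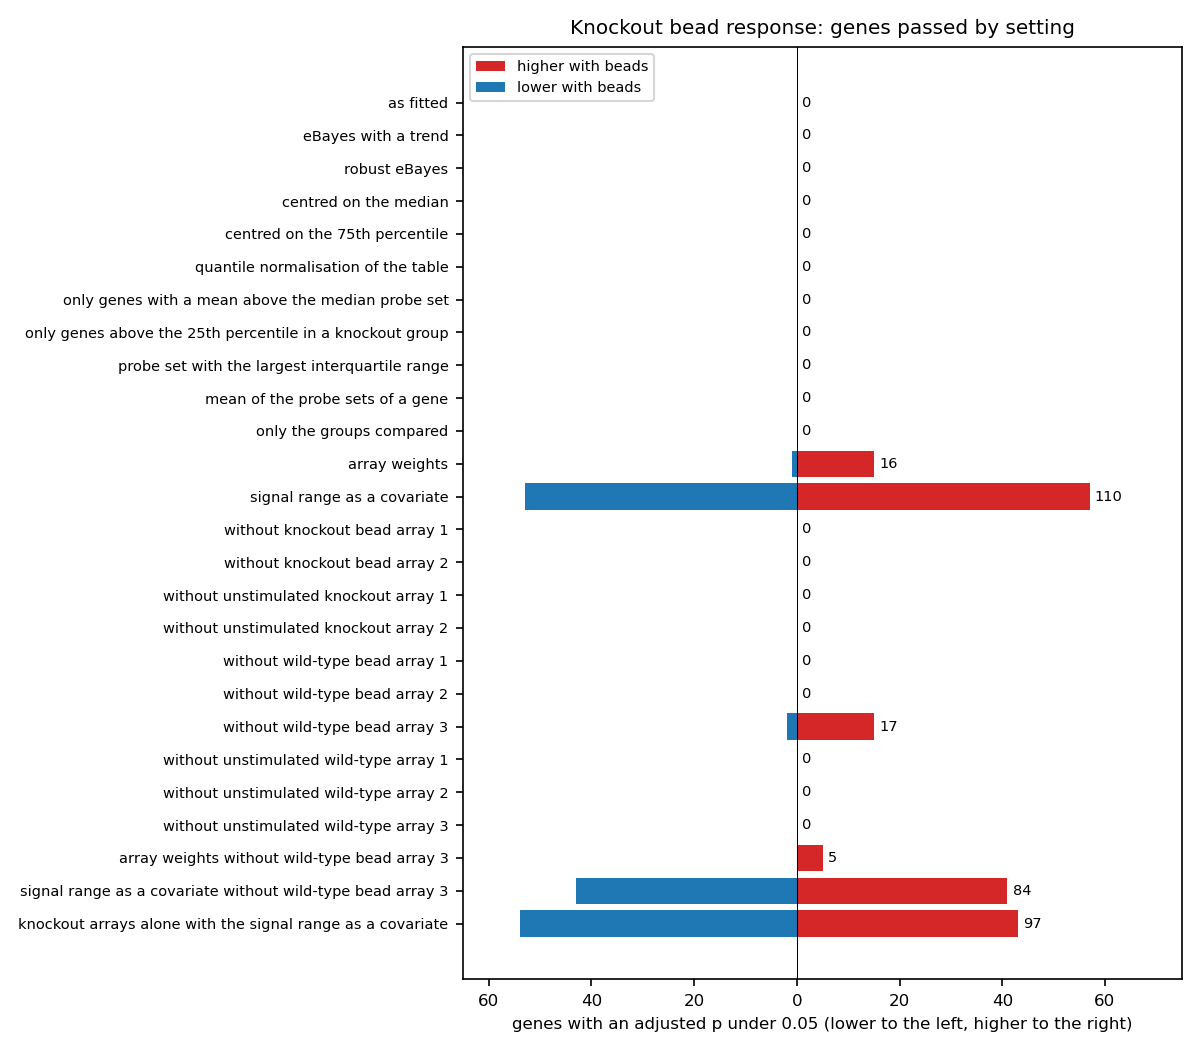
Number of genes with an adjusted p under 0.05 for the knockout bead difference (horizontal axis, lower genes to the left and higher genes to the right) under each processing setting (vertical axis), with totals printed. Most settings gave 0 genes, and the exceptions were the fits with array weights (16), with the signal range as a covariate (110) or without wild-type bead array 3 (17), and their combinations.

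The 110 genes of the covariate fit had differences of at least 0.32 in size in the fit without it, and none overlapped between the knockout groups. Among those with higher signal outside the 10 named by p were Tgm2, Nt5e, Dmpk and Id2, chosen here after their values were seen. Tgm2, a transglutaminase that crosslinks proteins, read 9.51 and 9.62 with beads and 8.71 and 8.68 without, a difference of 0.87 (SE 0.17). Nt5e, the surface ectonucleotidase CD73 that makes adenosine from AMP, read 6.90 and 6.79 with beads against an unstimulated mean of 5.97 (SD 0.04, n = 2), a difference of 0.87 (SE 0.17). Entpd1, the ectonucleotidase CD39 that acts one step before it, was among the lower genes, with 7.09 and 7.40 against 7.82 and 7.77 and a difference of -0.55 (SE 0.24).

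Genes of TGF-beta signalling, Smad feedback and the Id family had 17 measured members. With beads, 8 lay above both unstimulated arrays and 4 below, against 13.2% and 11.2% of all genes, and the median difference was 0.14 against 0.004 over all genes. None passed the test. Id2 and Skil passed with the covariate, and Id2 also with array weights and without wild-type bead array 3. Id3 and Id2 encode inhibitors of basic helix-loop-helix transcription factors. Id3 read 6.72 and 6.83 with beads and 5.77 and 5.95 without, a difference of 0.92 (SE 0.22, interval 0.43 to 1.40, adjusted p = 0.875). Id2 read 8.28 and 8.33 against 7.51 and 7.26, a difference of 0.91 (SE 0.22, interval 0.42 to 1.40, adjusted p = 0.91). Both genes were clear of overlap in the knockout line. In the wild-type line they were higher by 0.90 and 0.50, and there the Id2 arrays overlapped between the groups. Skil, a corepressor of Smad proteins, read 8.12 and 8.52 against 7.88 and 7.76. Smad7, the inhibitory Smad, read 6.93 and 7.12 against 6.58 and 6.51. Skil differed by 0.50 in the knockout and 0.78 in the wild-type line, and Smad7 by 0.48 and 0.40.

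Genes of matrix, adhesion and coagulation had 25 measured members, of which 7 lay above both unstimulated arrays and none below. Their median difference was 0.03. No member passed in the fit over all arrays without a covariate. Itga5, Plaur and Itgav passed with the covariate, Itgav also with array weights, and Itga5 also without wild-type bead array 3. Itga5, the fibronectin receptor subunit integrin alpha 5, read 10.24 and 10.40 with beads and 9.42 and 9.61 without, a difference of 0.80. Plaur, the urokinase receptor, read 9.82 and 10.10 against 9.33 and 9.21, a difference of 0.69. Plau, its ligand the protease urokinase, read 11.80 and 12.00 against 11.50 and 11.51, a difference of 0.39. Receptor and ligand thus both read higher on each bead array. Mmp12, the macrophage elastase, was higher by 0.55 in the knockout and by 0.53 in the wild-type line.

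Immediate early genes had 32 measured members, 9 above and 6 below both unstimulated arrays, with a median difference of 0.04. Dusp1, a phosphatase that switches off MAP kinases, read 10.51 and 10.64 with beads and 9.96 and 9.77 without, a difference of 0.71. Myc read 6.74 and 7.21 against 6.25 and 6.32, a difference of 0.69. Fosl1, the AP-1 subunit Fra-1, read 9.26 and 9.45 against 8.68 and 8.70, a difference of 0.66. None of the 3 overlapped between the groups. These 3 passed with the covariate, and Dusp1 also with array weights and without wild-type bead array 3. Egr1 (0.32), Dusp4 (0.32) and Fos (0.25) were smaller and in the same direction, while Klf2 (-0.36) and Btg2 (-0.27) were lower on both bead arrays.

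Genes induced by NRF2, the transcription factor of the antioxidant response, had 20 measured members, of which 11 lay above and 2 below both unstimulated arrays. Their median difference was 0.14, and 0.08 in the wild-type line. Hmox1, which degrades heme, read 10.99 and 11.01 with beads and 10.48 in both unstimulated arrays, a difference of 0.52. Gclm, a subunit of the enzyme that begins glutathione synthesis, read 10.27 and 10.38 against 9.90 and 9.76, a difference of 0.50. Hmox1 and Gclm passed with the covariate, and no member passed in the fit over all arrays without one. Slc7a11, the cystine transporter, was higher by 0.74, from 6.14 and 6.12 to 6.77 and 6.97. Srxn1, sulfiredoxin, read 8.87 and 9.30 against 8.70 and 8.10, a difference of 0.68, with the nearest arrays of the groups close together. Nfe2l2, which encodes NRF2 itself, was lower by 0.18 (difference -0.18).

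The promoters of Il1rn, Plaur and Srxn1 are shown because all 3 genes read higher on both bead arrays and each carries the AP-1 motif near its start. The motif searched was TGANTCA, which reads the same on both strands, in the 250 bases before each RefSeq gene start (build GRCm38.p6). Capitals mark the match in each stretch of 80 bases, given 5′ to 3′ along the gene's strand. They lie at chr2:24336689-24336768 (plus strand) for Il1rn, chr7:24462384-24462463 (plus strand) for Plaur and chr2:152105392-152105471 (plus strand) for Srxn1.
Il1rn: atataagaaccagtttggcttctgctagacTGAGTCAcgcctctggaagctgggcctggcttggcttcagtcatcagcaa
Plaur: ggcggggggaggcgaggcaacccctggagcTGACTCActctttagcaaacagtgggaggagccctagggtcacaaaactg
Srxn1: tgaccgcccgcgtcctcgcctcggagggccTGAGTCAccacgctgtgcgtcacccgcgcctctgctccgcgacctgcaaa
The match begins 141 bases before the start in Il1rn, 69 in Plaur and 102 in Srxn1. Over all 27025 genes with such a window, 7.82% held the motif. It was in 4 of 17 windows of the NRF2 list (23.5%), in 5 of 25 windows of the interferon list (20.0%), whose signals mostly read lower, in 1 of 9 of the 10 higher genes (Il1rn) and in 1 of 5 of the 10 lower genes (St6gal1). The antioxidant response element, searched as TGACNNNGC on both strands, was in 5 of 17 NRF2 list windows (29.4%), namely Gclm, Gsta3, Nfe2l2, Prdx1 and Txnrd1, and in 11.5% of all. A match describes these letters and does not show that a factor binds there.

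Interferon-stimulated genes had 33 measured members. With beads, 16 lay below both unstimulated knockout arrays and 1, Gbp5, which was below the 25th percentile of all probe sets on each knockout array, lay above, where 11.2% and 13.2% of all genes did so. Their median difference was -0.23 in the knockout line, -0.27 after quantile normalisation, and 0.04 in the wild-type line. The 4 members with the largest knockout differences had lower unstimulated means in the wild-type line. These were 4.52 against 9.78 in the knockout line for Rtp4 and 5.48 against 8.13 for Dhx58. For Ifih1 they were 5.41 against 8.19, and for Ddx58 6.96 against 10.16. The wild-type differences of these 4 genes were thus read at lower levels. None of the 33 members passed the test, and Ddx58 and Oasl2 passed with the covariate. Ddx58 encodes RIG-I, a sensor of viral RNA, and read 9.32 and 9.83 with beads and 10.25 and 10.07 without, a difference of -0.59. Dhx58, its relative LGP2, read 7.23 and 7.75 against 8.13 and 8.12, a difference of -0.64. Ifih1, the sensor MDA5, read 7.43 and 7.85 against 8.15 and 8.24, a difference of -0.55. All 3 sensors of this family were lower on both bead arrays, and bead array 1 was the lower of the pair each time. Oasl2 read 10.64 and 10.65 against 11.18 and 11.13, a difference of -0.51 with little spread within either group.

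The transcription factors of the pathway were part of the same pattern, with Irf1 at 7.44 and 7.46 with beads against 7.80 and 7.94 (difference -0.42). Stat2, a transcription factor of interferon signalling, read 8.35 and 8.43 against 8.63 and 8.91 (difference -0.38). Irf7 overlapped between the groups (difference -0.17). Irgm1, an interferon-induced GTPase, read 9.48 and 9.63 against 9.87 and 9.98 (difference -0.37). Of the 33 members, 6 had a positive difference, among them the antiviral effectors Ifit3 (0.38), Ifit1 (0.12) and Rsad2 (0.13), whose arrays overlapped. Ifit3 read 7.29 and 7.76 with beads and 7.41 and 6.88 without.

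Promoters of 4 interferon-stimulated genes are shown because they carry the same motif while their mean differences had different signs. The motif was the interferon-stimulated response element, searched as GAAA, any 2 bases and GAAA again, or the reverse complement (TTTC, any 2 bases, TTTC), in the same windows. Capitals mark the matches, which overlap in Irgm1. The stretches are chr19:34583343-34583422 (plus strand) for Ifit3, chr19:34640755-34640834 (plus strand) for Ifit1, chr10:128270248-128270327 (plus strand) for Stat2 and chr11:48871421-48871500 (minus strand) for Irgm1, again from RefSeq on GRCm38.p6. These genes were chosen after their values were seen.
Ifit3: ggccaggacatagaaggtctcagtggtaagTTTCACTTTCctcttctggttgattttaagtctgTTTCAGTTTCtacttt
Ifit1: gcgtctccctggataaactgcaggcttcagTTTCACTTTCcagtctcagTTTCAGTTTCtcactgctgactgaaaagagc
Stat2: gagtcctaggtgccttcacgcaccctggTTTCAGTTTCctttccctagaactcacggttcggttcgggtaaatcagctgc
Irgm1: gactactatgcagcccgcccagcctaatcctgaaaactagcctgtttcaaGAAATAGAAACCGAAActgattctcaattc
The first match begins 156, 104, 222 and 30 bases before the start in Ifit3, Ifit1, Stat2 and Irgm1. The motif was in 11 of the 25 interferon list members with a window (44.0%) and in 936 of all 27025 windows (3.46%). Ifit3 and Ifit1, with 2 matches each, had the positive differences given above, but their arrays overlapped between the groups. Ifit1 read 7.93 and 8.38 with beads and 8.03 and 8.05 without, so its sign is not settled. Irgm1, also with 2 matches, and Stat2, with 1, had negative differences without overlap.

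Cholesterol synthesis genes had 18 measured members, of which 12 lay below and 1 above both unstimulated arrays. Their median difference was -0.27 in the knockout line and -0.32 in the wild-type line. No member passed, with or without the covariate. Dhcr7, which makes cholesterol in the last step of one branch, read 8.52 and 8.61 with beads and 9.18 and 8.84 without (difference -0.45). Insig1, a sterol-sensing inhibitor of the pathway that the pathway's own factor induces, read 8.94 and 9.33 against 9.67 and 9.41 (difference -0.41). Hmgcs1, an early enzyme, read 8.30 and 8.35 against 8.53 and 8.74 (difference -0.31), and in the wild-type line its difference was -0.51. Srebf2, the gene of that transcription factor, overlapped between the groups (difference 0.04). Scd2, a fatty acid desaturase in the list of cholesterol efflux and LXR targets, read 10.66 and 10.82 against 11.23 and 11.37 (difference -0.56) and passed with the covariate.

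Cell cycle and replication genes had 31 measured members, of which 20 lay above and 2 below both unstimulated arrays. The differences were small, with a median of 0.13 and a range of -0.09 to 0.37, and the wild-type median was -0.02. None passed with or without the covariate. The 5 members with the highest differences were Mcm4, Ccne2, Mcm2, Ccne1 and Ccnd1. Mcm4, a subunit of the replicative helicase, read 8.93 on both bead arrays against 8.44 and 8.68 (difference 0.37). Mcm2, another subunit, read 9.54 and 9.57 against 9.17 and 9.25 (difference 0.34). Ccne2 (0.36), Ccne1 (0.30) and Ccnd1 (0.28), which encode cyclins of the G1 phase, were also higher on both bead arrays. Mitotic genes were among the members higher on both bead arrays, by smaller amounts, such as Cdk1 (0.18), Aurkb (0.14), Aurka (0.13), Cdc20 (0.13) and Plk1 (0.08). The 2 members lower on both were Ccnb2 (-0.09) and Bub1b (-0.07). In such bulk samples, a change in the share of cells of a kind and a change in RNA per cell cannot be told apart.

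**Figure D3:**
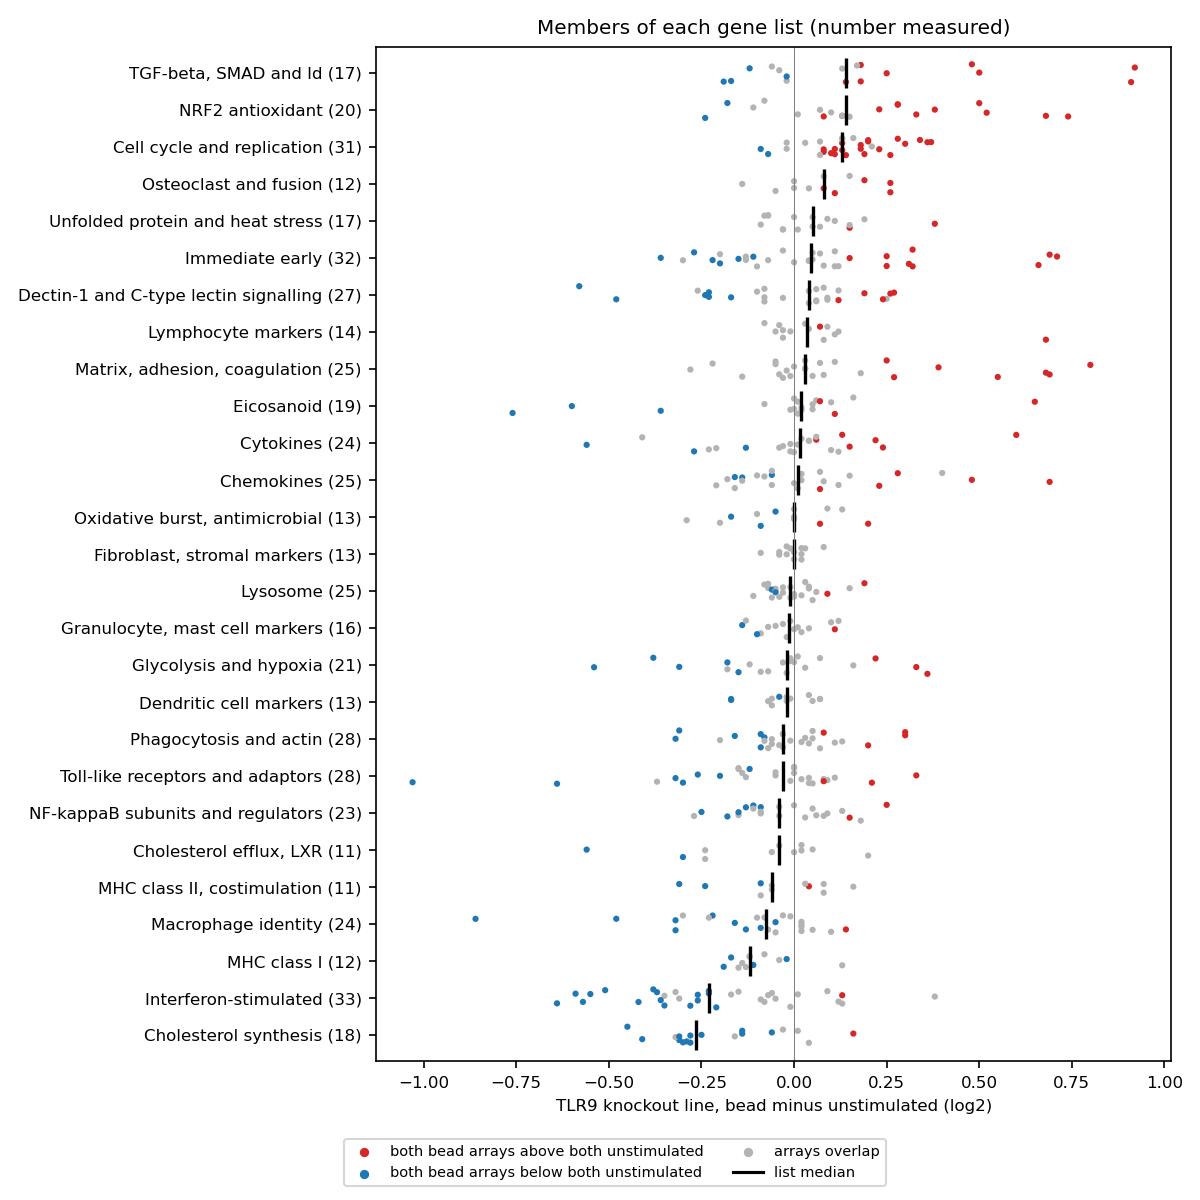
Knockout bead difference on the log2 scale (horizontal axis) of each measured member of the 27 gene lists (vertical axis, number measured in brackets), coloured by whether its 2 bead arrays lay above (red), below (blue) or among (grey) its 2 unstimulated arrays, with the list median as a black bar. The interferon and cholesterol synthesis medians, -0.23 and -0.27, lie furthest to the left and those of the NRF2 and TGF-beta lists, 0.14 each, furthest to the right.

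Genes of Dectin-1 and C-type lectin signalling had 27 measured members, 5 above and 6 below both unstimulated arrays, with a median difference of 0.04. Clec7a, the Dectin-1 gene, read 7.29 and 7.68 with beads and 7.84 and 7.66 without. The groups overlapped, and the difference was -0.26 with an interval from -0.83 to 0.31. Syk read 8.68 and 8.70 against 8.29 and 8.62 (difference 0.24), and Card9 overlapped (difference -0.08). Vav3, a signalling protein that acts downstream of Syk, read 7.18 and 7.37 against 7.85 on both unstimulated arrays (difference -0.58). Vav3 was the one member of this list that passed with the covariate. Mrc1, the mannose receptor, read 6.11 and 5.89 against 6.54 and 6.41 (difference -0.48).

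Toll-like receptors with their adaptors had 28 measured members, 3 above and 7 below both unstimulated arrays, with a median difference of -0.03. Tlr8 (probe set 10607868) read 6.02 and 6.34 with beads and 7.26 and 7.15 without. Its groups were far apart, with a difference of -1.03 (SE 0.24, interval -1.57 to -0.48, adjusted p = 0.875), or 2.04-fold, and in the wild-type line the difference was 0.01. Tlr7 read 8.36 and 8.56 against 9.25 and 8.97 (difference -0.64), and its wild-type difference was -0.46. Tlr7 and Tlr8, neighbours on the X chromosome that both sense RNA in endosomes, were the members that passed with the covariate. Their chaperone gene Unc93b1 had a difference of 0.00, and Myd88 (-0.15) and Tlr3 (-0.13) overlapped. For Tlr9 the difference was -0.20 with an interval from -0.58 to 0.18. Cd180, a surface relative of Tlr4, was higher on both bead arrays, with 12.08 and 12.11 against 11.77 on both unstimulated arrays (difference 0.33).

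Cytokine genes had 24 measured members, 6 above and 3 below both unstimulated arrays, with a median of 0.01. Il1rn and Il15 passed with the covariate. Il15 read 5.20 and 5.30 with beads and 6.02 and 5.60 without (difference -0.56). Tnf, a usual readout of macrophage activation, read 9.80 and 10.06 against 9.77 and 9.89. It overlapped, with a difference of 0.10 and an interval from -0.20 to 0.41. Il6 was below the 25th percentile of all probe sets on all 4 knockout arrays and had a difference of -0.03, and Il1b had one of -0.01. Chemokine genes had 25 measured members, 5 above and 3 below, with a median of 0.01. Cxcl14 read 9.49 and 9.78 against 9.13 and 8.77 (difference 0.69) and passed with the covariate. Ccl2, which attracts monocytes, read 8.73 and 9.00 against 8.60 and 8.19 (difference 0.48), while Ccl3 overlapped (difference 0.02).

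Eicosanoid genes had 19 measured members, 3 above and 3 below both unstimulated arrays, with a median of 0.02. Ptgs2, the inducible cyclooxygenase, read 8.14 and 8.30 with beads and 7.65 and 7.49 without (difference 0.65). Hpgd, which inactivates prostaglandins, read 7.88 and 8.44 against 9.07 and 8.78 (difference -0.76). Hpgds, the prostaglandin D synthase of blood cells, read 10.31 and 10.55 against 10.81 and 10.77 (difference -0.36). Cysltr1, a receptor for cysteinyl leukotrienes, read 7.76 and 7.82 against 8.34 and 8.44 (difference -0.60). The synthases Ptges (0.05), Ptges2 (0.00) and Ptgis (0.01) overlapped between the groups. With the covariate Ptgs2, Hpgds and Cysltr1 passed, and Hpgd did not.

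Genes of macrophage identity had 24 measured members, of which 9 lay below and 1 above both unstimulated arrays, with a median of -0.07. Maf was the one that passed with the covariate. Fcgr1, the high-affinity IgG receptor, read 9.36 and 9.57 with beads against 9.82 and 9.77 (difference -0.32), and C1qc, a chain of complement C1q, read 8.43 and 8.76 against 8.90 and 8.94 (difference -0.32). Csf1r, the receptor for the growth factor of macrophages, had a difference of -0.01. Of the 12 measured MHC class I genes 4 lay below and none above, with a median of -0.12, and of the 23 NF-kappaB subunits and regulators 6 lay below and 2 above, with a median of -0.04. Nfkbia, an inhibitor that NF-kappaB itself induces, had a difference of -0.04 and overlapped.

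The remaining lists had medians between -0.06 and 0.08. Osteoclast and fusion genes had 5 of 12 measured members above both unstimulated arrays and none below, among them Nfatc1 and Ocstamp, each higher by 0.26. Genes of the unfolded protein response had 2 of 17 above and none below, glycolysis and hypoxia genes 3 of 21 above and 5 below, cholesterol efflux and LXR genes none of 11 above and 2 below, and MHC class II and costimulation genes 1 of 11 above and 3 below. Phagocytosis and actin genes had 4 of 28 above and 6 below, lysosome genes 2 of 25 in each direction, and oxidative burst genes 2 of 13 above and 3 below. Among markers of other cells, 4 of 13 dendritic cell, 7 of 16 granulocyte and mast cell, 5 of 14 lymphocyte and 1 of 13 fibroblast and stromal markers were below the 25th percentile of all probe sets on all knockout arrays. The summed linear signal of the lymphocyte markers was 795 and 775 on the bead arrays and 651 and 669 on the unstimulated arrays. Il7r, the interleukin-7 receptor, had the largest difference in that list, with 8.07 and 8.39 against 7.70 and 7.41 (difference 0.68), and passed with the covariate, while Cd3e overlapped. Without Il7r the lymphocyte sums were 526 and 440 with beads and 443 and 500 without, and overlapped. The summed dendritic cell signal was 3496 and 3342 with beads and 3545 and 4015 without. Most of it was Sirpa, which macrophages also express, and without Sirpa the sums were 586 and 524 with beads and 554 and 561 without. The part of these markers in the results above was not tested.

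The 20 genes named by their p were chosen for their differences in the knockout arrays, and that choice favours larger differences there than in the wild-type line. Their values in both lines, and the intervals above and below, are therefore a description. Of the 20 genes, 15 had the same sign in the wild-type line, where the differences of the 20 ran from -0.38 to 0.26. Those of opposite sign, Pde7b, Abca6, Adap2, Pgpep1 and St6gal1, were all among the lower genes. The test of the difference between the responses of the lines passed for no gene (limma, smallest adjusted p = 1), and 90 genes (0.451%) were higher and 82 (0.411%) lower in that test at an unadjusted p under 0.05. The wild-type response by the same fit also had 0 genes that passed, with 113 (0.567%) higher and 54 (0.271%) lower at an unadjusted p under 0.05. For the wild-type response, both directions also add up to less than the fraction of about 0.05 that no effect would give. The same holds for the difference between the lines. For Sdc1 the responses differed by 0.65 (SE 0.13, 95% confidence interval 0.37 to 0.94), for Jag1 by 0.90 (interval 0.44 to 1.35) and for Pde7b by -1.24 (interval -1.90 to -0.58). For Id3 they differed by 0.02, with an interval from -0.61 to 0.65, and for Id2 by 0.41, with an interval from -0.22 to 1.05. The difference between the lines passed for 9 genes (0.0451%) with array weights, 2 (0.0100%) with the covariate and 1 (0.00502%) without wild-type bead array 3. The wild-type response passed for 9174 genes (46.0%) with array weights and 2 (0.0100%) with the covariate. The array weights, whose iteration did not reach its tolerance, were 12.1 for wild-type bead array 2 and 0.0701 for wild-type bead array 3. The count of 9174 thus leans mostly on a single wild-type bead array. The unstimulated levels of the named genes were not the same in the lines, as Jag1 read 5.28 to 5.41 in unstimulated wild-type arrays and Maf read 9.89 to 10.07.

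Across all genes the knockout and the wild-type difference had a Pearson r of 0.12, and 0.21 over the 10761 genes above the median probe set. Genes are not independent replicates, so this is a description. In the wild-type line the arrays did not overlap for 456 higher genes (2.29%) and 247 lower genes (1.24%). Separation of 3 arrays a side is harder to reach by order alone than that of 2. These shares are therefore not comparable with those of the knockout line, and the percentages of shared genes below are affected likewise. In both lines, 119 genes lay above both, or all, unstimulated arrays, which is 4.51% of such genes in the knockout and 26.1% of such genes in the wild-type line. A further 67 lay below in both lines, 3.00% of the knockout and 27.1% of the wild-type genes of that kind. The sign was opposite for 39 genes that were above in the knockout line and 59 that were below. The 110 genes of the covariate fit were likewise selected in the knockout arrays, which by itself favours smaller wild-type differences. Of them, 87 had the same sign in the wild-type line, 108 had a smaller difference there and 14 were without overlap in the same direction.

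**Figure D4:**
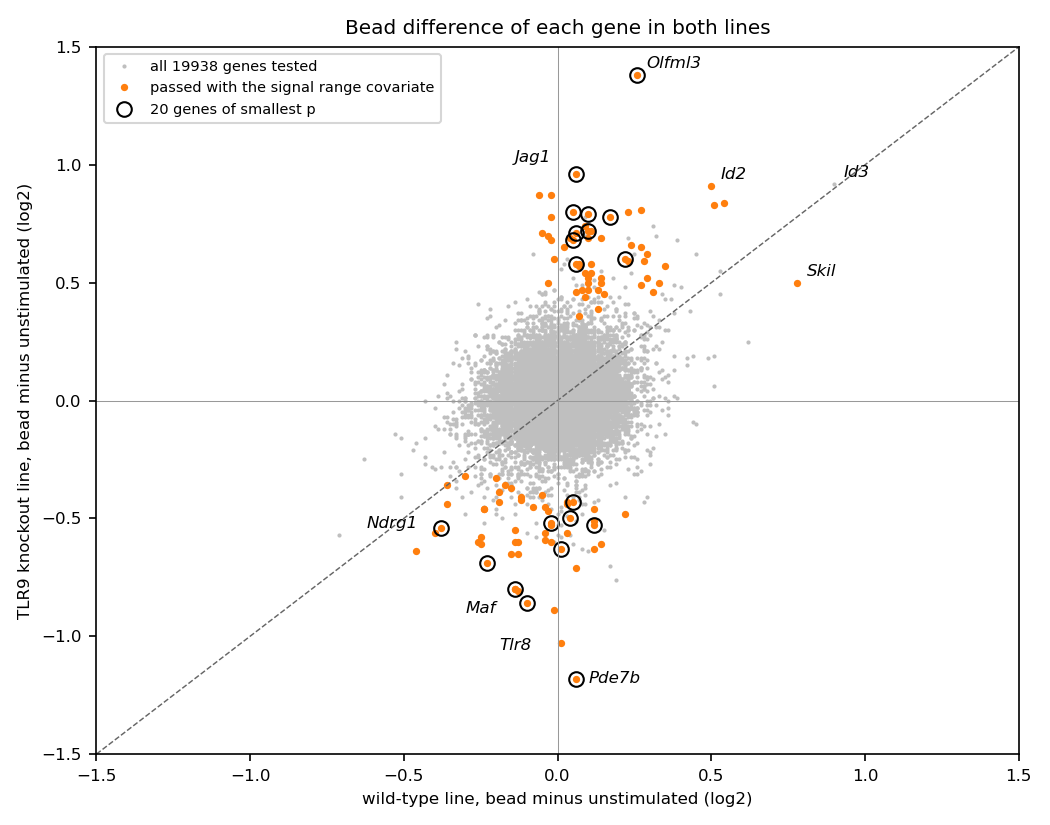
Bead minus unstimulated difference (log2) of each of 19938 genes in the wild-type line (horizontal axis) and the knockout line (vertical axis), with the 110 genes of the covariate fit in orange, the 20 named genes ringed and the line of equal differences dashed. Most named genes lie near 0 on the wild-type axis, whereas Id3 (0.90 and 0.92) lies near the dashed line and Skil (0.78 and 0.50) below it.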

How the data were processed

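Expression was measured on 10 Affymetrix arrays, labelled from total RNA. The authors deposited log2 signals, and the submitters' processing notes name RMA, which corrects background, aligns probe distributions and summarises probe sets. The scale follows from the values, which had array medians of 5.97, 5.84, 5.86 and 5.95 in the knockout arrays. Not given in the sources used here: RMA version, centring, annotation, filters. The number of arrays limits the precision.

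Groups were taken from the labels, and array numbers follow the order of deposit. Of 28853 probe sets, 21789 carried 1 symbol in the platform annotation, 1621 several and 5443 none, and 21698 were updated by Entrez ID. Each of 19938 genes was represented by its probe set of highest mean (999 genes had several). A model of 4 group means over all 10 arrays was fitted with limma 3.58.1 in R 4.3.3 (lmFit, eBayes, 6 residual and 3.23 prior degrees of freedom). Tests were two-sided, with Benjamini-Hochberg adjustment over all genes and a threshold of 0.05. The script was tested on simulated data. Named genes were up to 10 per direction with the smallest unadjusted p among genes without overlap, since none passed, plus up to 4 per list with the largest differences and Tlr9, Clec7a, Tnf and Actb. Gapdh lay on a probe set of several genes. Of 597 entries in 27 lists, 552 were measured, 34 had no named probe set, and 11 had a shared one alone. Members and lists were chosen with earlier results of these data known. Promoter windows came from RefSeq on GRCm38.p6. Alternatives covered moderation, centring, quantile normalisation, low-signal filters, probe set choice, array weights, the signal range as a covariate and leaving out each array. Combinations without wild-type bead array 3, and the knockout arrays alone with the covariate, were added after seeing the data.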

Additional observations from a re-analysis of the deposited data

Results flagged for a closer look

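By the test of the difference between the bead responses of the lines, Tgm2 and Tlr8 passed with the signal range as a covariate. Cd72 passed without wild-type bead array 3 (limma, Benjamini-Hochberg over all genes in each fit). Tgm2 passed only with the covariate over all 10 arrays. For Tgm2 the knockout response exceeded the wild-type response by 0.81 (SE 0.10, adjusted p = 0.0345). In the wild-type line Tgm2 read 9.77, 9.79 and 9.22 with beads and 9.60, 9.63 and 9.60 without, so bead array 3 was the low one. For Tlr8 the difference between the responses was -1.14 (SE 0.13, adjusted p = 0.0345). For Cd72, a lectin-like receptor known from B cells, it was -1.09 (SE 0.11, adjusted p = 0.0381). Cd72 read 8.90 and 9.01 with beads and 9.61 and 9.55 without in the knockout line, and 8.67, 8.68 and 7.65 against 8.22, 8.17 and 8.26 in the wild-type line. In the fit over all arrays without the covariate the same differences were 0.88, -1.04 and -0.75, each with an adjusted p of 1. Groups of 2 or 3 arrays are too small for a rule on single outlying arrays.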

How the results depend on the processing

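No paired analysis was possible because no 2 arrays share a number in the labels. The titles hold numbers and letters in brackets that differ for each array and are not explained. The count of 0 genes for the knockout response became 16 with array weights, 110 with the signal range as a covariate, 5 with array weights without wild-type bead array 3, 84 with the covariate without that array and 97 in the knockout arrays alone with the covariate. It ran from 0 to 17 when single arrays were left out, and 17 came without wild-type bead array 3. For the difference between the lines 0 became 9 with array weights, 2 with the covariate and 1 with either of them without wild-type bead array 3, and leaving out single arrays gave 0 to 1. For the wild-type response 0 became 9174 with array weights, 5049 with these without bead array 3 and 2 with the covariate. The iteration for the weights did not reach its tolerance, and they ran from 0.0701 for wild-type bead array 3 to 12.1 for bead array 2. Every other alternative gave 0 genes for these counts, and the lowest adjusted p among them for the knockout response was 0.0502, with quantile normalisation.

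The knockout differences changed sign for 16 named genes when single arrays were left out. They ran from -0.80 to 0.07 for Ly96, -0.58 to 0.00 for Arg1, -0.36 to 0.05 for H2-Q4, -0.28 to 0.00 for Psmb8, -0.28 to 0.03 for Gata2 and -0.25 to 0.06 for Krt8. They ran from -0.09 to 0.47 for Dnajb9, -0.13 to 0.43 for Dcstamp, -0.02 to 0.17 for Xcr1, -0.03 to 0.27 for Klrb1c, -0.05 to 0.27 for Cd3g and -0.05 to 0.24 for Cd3e. They ran from -0.04 to 0.21 for Dcn, -0.10 to 0.01 for Lum, -0.10 to 0.03 for Epcam and -0.03 to 0.23 for Tnf. Epcam was also at 0.00 with the covariate without wild-type bead array 3. The cause was not tested. With 2 arrays per knockout group, leaving out 1 leaves a lone array, whose spread is taken to be that of the other groups. Probe sets near the 25th percentile of signal carry differences of little reliability.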

Other observations

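Probe sets outside the gene test were 1621 that carry several symbols and 5443 that carry none, 7064 in all. In the knockout bead response none passed (limma, Benjamini-Hochberg over these probe sets, smallest adjusted p = 0.176), with 36 higher and 57 lower at an unadjusted p under 0.05 and differences between -1.04 and 0.83 on the log2 scale.

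For 2 named genes another probe set of the same gene gave a further value. Cd80 had a difference of -0.13 on its other probe set and Bnip3 one of -0.35.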
